A study of Mus musculus with 2 samples.

Results

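The mRNAs of 10 genes that store, move, release or sense iron were read in unstimulated mouse macrophages. A single RNA library came from wild-type mice (WT), the other from mice whose STAT2, a signalling protein of the type I interferon response, carries the T403A substitution of threonine by alanine. The genes were listed by name (Fth1, Ftl1, Ncoa4, Tfrc, Slc11a2, Slc11a1, Slc40a1, Hmox1, Blvrb and Ireb2) and are 10 of the 22060 genes in the count table. All 10 passed the filter of at least 20 counts summed over both libraries, as did 11199 genes in all. Both groups were C57BL/6 mice of 8 weeks, whose bone marrow was grown for 7 days with M-CSF, the factor that turns marrow progenitors into macrophages, and neither received a treatment (0 h). Whether the substituted allele was on 1 or both chromosomes, and how many animals gave each library, is not given in the sources used here. With 1 library per genotype there is no replicate error and no p-value. Every statement compares these 2 libraries, and the intervals cover counting error only. In bulk RNA, fewer cells of a type and less RNA per cell cannot be told apart.

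Macrophages take up iron from transferrin through the transferrin receptor and from engulfed red cells through heme oxygenase, keep it in the ferritin shell, and return it to plasma through ferroportin. Iron regulatory proteins tie these steps together: when iron is scarce they bind a short hairpin in mRNA, the iron-responsive element. Bound near the 5′ end of an mRNA they block its translation (ferritin, ferroportin), and bound in the 3′ UTR they protect it from decay (transferrin receptor). Ferritin and ferroportin protein can therefore change with no change in mRNA, and only mRNA was measured here.

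The elements of 4 members are shown because they are the sequence feature through which these mRNAs are tied to iron. They were read from the GENCODE M21 transcripts on GRCm38, as DNA letters of the transcript strand, 5′ to 3′, and the capitals mark the loop.
Fth1, 5′ UTR, chr19:9982732-9982760, plus strand: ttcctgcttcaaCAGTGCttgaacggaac
Ftl1, 5′ UTR, chr7:45459779-45459807, minus strand: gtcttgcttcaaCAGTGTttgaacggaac
Slc40a1, 5′ UTR, chr1:45925465-45925493, minus strand: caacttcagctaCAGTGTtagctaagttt
Tfrc, 3′ UTR, element 1, chr16:32631219-32631247, plus strand: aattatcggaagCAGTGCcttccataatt
Tfrc, 3′ UTR, element 2, chr16:32631598-32631626, plus strand: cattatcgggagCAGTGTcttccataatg
Tfrc, 3′ UTR, element 3, chr16:32631663-32631691, plus strand: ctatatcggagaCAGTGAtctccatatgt
Tfrc, 3′ UTR, element 4, chr16:32631710-32631738, plus strand: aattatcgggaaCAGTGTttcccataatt

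The search asked for a C, 5 bases of stem, the loop CAGTGN with any base but G at its end, and 5 bases that pair with the first stem arm, with at most 1 G-T pair, on the transcript strand of the UTRs. This form was found in the 5′ UTR of 0.0526% of the 20916 genes with one, and in the 3′ UTR of 0.181% of the 21045 genes with one. It was found in these 4 members, with 1 match each in Fth1, Ftl1 and Slc40a1 and 4 in Tfrc. A match is a description of the letters, and binding was not measured.

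The libraries held 16033032 counts (WT) and 18658381 counts (T403A). Levels are given as CPM, counts per 1000000 counts of the TMM-scaled library, a scaling that sets the bulk of genes equal between libraries, and as RPKM, CPM per kilobase of the deposited gene length, where genes are compared with each other. The gene that carries the substitution, Stat2, was at 376 CPM in WT against 84.4 CPM in T403A, 4.46-fold lower (95% interval 4.22 to 4.71). A single substitution need not change a read count, so this does not check the labels. All 10 macrophage markers were measured in both libraries, at 52067 CPM summed in WT against 43323 CPM in T403A, with Lyz2 the most abundant at 36620 and 29804 CPM. Of 12 erythroid markers none was measured, 6 were at 0 in both libraries (among them Hba-a1, Hba-a2 and Hbb-bt), and their summed level was 0.467 CPM in WT and 0.802 CPM in T403A. Red cell precursors, which express many iron genes, were therefore close to undetectable in both cultures by these markers. The 7 lymphocyte markers summed to 0.200 and 0.301 CPM, the 9 neutrophil markers to 8.73 and 11.4 CPM and the 6 stromal and endothelial markers to 8.73 and 3.16 CPM in WT and T403A. The 6 dendritic cell markers held 32 and 23 counts in all. The most abundant were Cd79a of the lymphocyte list (2 and 6 counts) and S100a9 of the neutrophil list (28 and 77). For the stromal and endothelial list it was Pdgfrb (41 and 15), and for the dendritic list Xcr1 (19 and 6). Mitochondrial transcripts took 1.93% of WT and 2.46% of T403A counts.

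Ferroportin mRNA was higher in the T403A library, and heme oxygenase 1 and ferritin heavy chain mRNA were lower. To be called higher or lower, a gene needed a ratio of 1.5-fold or more with an exact 95% interval that excluded 1. By this rule 1 of the 10 members was higher (Slc40a1), beside 13.5% of all measured genes, and 2 were lower (Hmox1 and Fth1), beside 10.8% of all measured genes. Of the 2213 genes that averaged 100 CPM or more, a level that 9 of the 10 members reached, 5.38% were higher and 16.8% lower. The median log2 ratio of the members, T403A over WT, was -0.09, against 0.01 over all measured genes. As a group the members thus sat close to the background, and the differences lay in single genes with opposite directions.

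The order of the members by level was led by ferritin heavy chain in both libraries. In WT the RPKM values ran from Fth1 (28931) through Hmox1 (802), Slc11a1 (259), Ftl1 (183) and Blvrb (127) to Ncoa4 (27.1), Tfrc (21.3), Slc11a2 (16.4), Slc40a1 (12.9) and Ireb2 (11.0). In T403A the order was Fth1 (18572 RPKM), Hmox1 (398), Ftl1 (229), Slc11a1 (193), Blvrb (107), Slc40a1 (29.1), Tfrc (28.5), Ncoa4 (27.5), Slc11a2 (14.7) and Ireb2 (10.9). From WT to T403A, Slc40a1 passed Slc11a2, Ncoa4 and Tfrc, Tfrc passed Ncoa4, and Ftl1 passed Slc11a1. Without replicate spread no pair of neighbours in this order can be told apart as cultures, and Slc40a1, Tfrc and Ncoa4 in T403A lay within 29.1 to 27.5 RPKM of each other. By RPKM, Fth1 ranked 1 of all 11199 measured genes in WT and 2 in T403A. Its deposited length is 866 bases, whereas the union of its M21 exons is 3469 bases. With that length its level would be 7222 and 4636 RPKM, still the highest of the members. Lyz2 stood at 27827 RPKM in WT and 22647 RPKM in T403A, so the rank of 1 for Fth1 in WT rests on the deposited length.

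**Figure D1:**
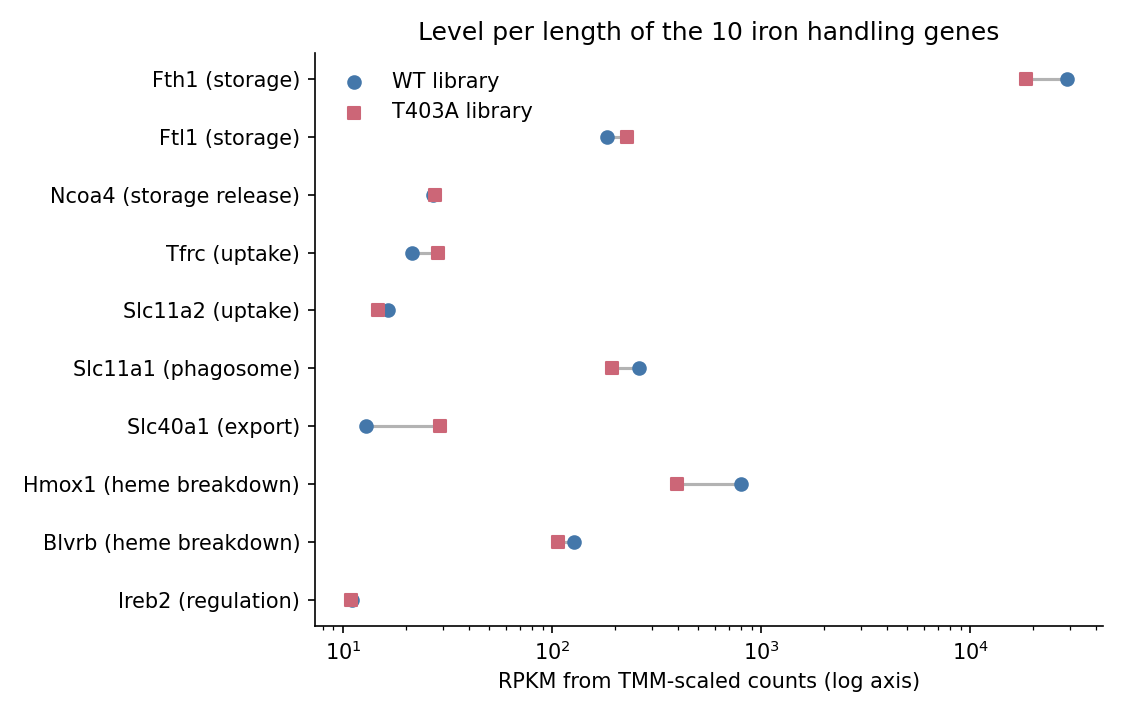
Level of each of the 10 iron handling genes in RPKM (log axis), with a circle for the WT library and a square for the T403A library. Fth1 stands far above the others in both libraries (28931 and 18572 RPKM), and Slc40a1 (12.9 and 29.1 RPKM) and Hmox1 (802 and 398 RPKM) show the widest gaps, in opposite directions.

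Among the storage genes, the heavy and light ferritin chains went in opposite directions. Fth1 (ENSMUSG00000024661, chr19:9980598-9985098, plus strand), the ferroxidase subunit that loads iron into the shell, was at 25054 CPM in WT (375856 counts) and 16083 CPM in T403A (320716 counts). That is 1.56-fold lower (interval 1.55 to 1.57), and 10.6% of measured genes had a lower log2 ratio. The call for Fth1 rested on the scaling: it was 1.48-fold lower with upper quartile scaling and 1.36-fold lower with library size scaling, both short of 1.5-fold. Fth1 alone took 2.34% of all counts in WT (95% Wilson interval 2.34 to 2.35) and 1.72% in T403A (1.71 to 1.72), and it made up 87.2% and 84.7% of the counts of the 10 members.

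Ftl1 (ENSMUSG00000050708, chr7:45457944-45459884, minus strand), the light chain that supports mineral growth inside the shell, was at 245 CPM in WT (3676 counts) and 307 CPM in T403A (6122 counts), a ratio of 1.25 (1.20 to 1.31), whose interval excluded 1 but which was short of 1.5-fold. Per deposited length, Fth1 stood 158-fold above Ftl1 in WT and 81.1-fold in T403A, and with the M21 exon union of Fth1 39.5-fold and 20.2-fold. The count ratio within a library does not depend on scaling, and it was 1.95-fold smaller in T403A (exact conditional interval 1.87 to 2.03). The gap between the chains carries a limit of the counting. Of all 50-base windows in the annotated Ftl1 transcripts, 58.4% occur letter for letter in transcripts of 17 other genes, among them Ftl1-ps1 and Ftl2-ps, while for Fth1 the share is 1.59%. How reads that fit several places were treated is not given in the sources used here, and the part of these copies in the Ftl1 level was not tested. Ftl1-ps1, the ferritin copy with its own row, held 42 WT and 95 T403A counts. The other ferritin genes in the table, Ftmt and 6 Fthl17 genes, had 0 counts in both libraries. Exons of Ftl1 also overlap those of Gm10252 on the opposite strand, and the strand setting of the counting is not given either.

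Ncoa4 (ENSMUSG00000056234, chr14:32159865-32179855, plus strand), the cargo receptor that carries ferritin to lysosomes so that its iron is released, was nearly equal at 254 CPM in WT (3803 counts) and 258 CPM in T403A (5141 counts). Its ratio was 1.02, with an interval of 0.975 to 1.06. Relative to Fth1 in the same library, Ncoa4 was 1.58-fold higher in T403A (1.52 to 1.65). Of its 50-base windows 17.9% also occur in 1 other gene model, Gm6768. Of the 4 other storage genes listed, 3 were measured and none was called, including the iron chaperone Pcbp1 (276 and 257 CPM) and Herc2, a ubiquitin ligase that turns over Ncoa4 (227 and 247 CPM).

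For iron entry, the transferrin receptor was above WT in the T403A library by less than 1.5-fold. Tfrc (ENSMUSG00000022797, chr16:32608920-32632794, plus strand), which brings in iron-loaded transferrin, was at 132 CPM in WT (1975 counts) and 176 CPM in T403A (3509 counts). The ratio was 1.34 (1.26 to 1.41), short of 1.5-fold with an interval that excluded 1, but with library size scaling it was 1.53 (1.44 to 1.61) and would be called higher. Relative to Fth1 in the same library, Tfrc was 2.08-fold higher in T403A (1.97 to 2.20), which no scaling changes. Dividing cells are known to carry more transferrin receptor. All 10 genes of a proliferation list were higher in T403A, at 83.9 CPM summed in WT against 501 CPM in T403A, led by Mki67 with 54.8 and 258 CPM, and their part in the Tfrc value was not tested.

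Slc11a2 (ENSMUSG00000023030, chr15:100387898-100425072, minus strand) encodes DMT1, which moves ferrous iron from endosomes into the cytosol. It was at 104 CPM in WT (1565 counts) and 93.3 CPM in T403A (1861 counts), a ratio of 0.895 (0.836 to 0.957), short of 1.5-fold with an interval that excluded 1. The sign of this small difference turned with library size scaling (log2 ratio 0.031 in place of -0.16). Slc11a1 (ENSMUSG00000026177, chr1:74375195-74386062, plus strand) encodes NRAMP1, which draws divalent metals out of the phagosome of macrophages. It was the more abundant paralog, at 960 CPM in WT (14399 counts) and 714 CPM in T403A (14231 counts), 1.34-fold below WT (1.31 to 1.38) and short of the 1.5-fold condition. C57BL/6 mice are known to carry a loss-of-function coding allele of Slc11a1, which read counts do not show. Per length Slc11a1 exceeded Slc11a2 15.8-fold in WT and 13.1-fold in T403A.

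Of 11 other uptake genes 7 were measured, of which 2 were higher, 1 lower and 4 not called. The counts of this list and of the lists that follow stand beside 13.5% higher and 10.8% lower among all measured genes. Slc39a8, a zinc transporter that also carries iron, was at 3.47 CPM in WT (52 counts) and 13.9 CPM in T403A (278 counts), 4.02-fold higher (2.98 to 5.52). Steap3, the reductase that prepares endosomal iron for DMT1, was at 29.2 and 47.2 CPM, 1.62-fold higher (1.44 to 1.81). Lcn2, which binds bacterial siderophores that hold iron, was at 11.7 CPM (176 counts) in WT and 1.25 CPM (25 counts) in T403A, 9.36-fold lower (6.13 to 14.9). The abundant receptor gene Lrp1, which takes up heme bound to hemopexin, was at 2056 and 2248 CPM, and Hfe, a partner of the transferrin receptor, at 70.7 and 66.4 CPM, both within 1.5-fold.

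For iron export, ferroportin had the highest T403A to WT ratio of the 10 members. Slc40a1 (ENSMUSG00000025993, chr1:45908068-45926523, minus strand), the known iron exporter of mammalian cells, was at 116 CPM in WT (1735 counts) and 262 CPM in T403A (5229 counts). It was 2.27-fold higher in T403A (2.15 to 2.40), and 5.78% of measured genes had a higher log2 ratio. The call held under the 4 other scalings, with ratios from 2.26 to 2.59, and none of the 50-base windows of Slc40a1 occurs in another annotated gene. Relative to Slc40a1 in the same library, Tfrc was 1.70-fold lower in T403A (1.57 to 1.83). Per length the exporter was below the receptor in WT (Tfrc to Slc40a1 ratio 1.66) and level with it in T403A (0.976).

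Ferroportin is high in red pulp macrophages of the spleen, so genes listed for that type are given beside it. Of the other 6 listed, none was higher and 3 were lower in T403A (Siglec1, Vcam1 and Spic). Siglec1, the most abundant, is also interferon-inducible and is not particular to that type. It was at 1120 CPM in WT against 217 CPM in T403A. Vcam1 held only 55 counts in WT and 19 in T403A. Spic, the factor that drives that cell type, was at 4.73 CPM in WT (71 counts) and 2.41 CPM in T403A (48 counts), 1.97-fold lower (1.34 to 2.90). The hemoglobin receptor gene Cd163 was within 1.5-fold at 45.3 and 56.8 CPM.

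Of 6 other export genes listed, 2 were measured, 1 lower and 1 within 1.5-fold. Cp, which encodes ceruloplasmin, the copper oxidase that lets exported iron bind transferrin, was at 152 CPM in WT (2275 counts) and 29.7 CPM in T403A (592 counts), 5.11-fold lower (4.66 to 5.60). Its exons overlap those of Hps3 on the opposite strand by 108 bases. The heme exporter gene Flvcr1 was within 1.5-fold at 75.5 and 62.7 CPM. Hamp, which encodes the hormone hepcidin that removes ferroportin from the membrane, had 2 counts in WT and 0 in T403A, where a count of 0 allows up to 3 counts, or 0.15 CPM. Slc22a17, the receptor of lipocalin-bound iron, had 0 counts in WT and 14 in T403A, below the filter, and with no count filter it would be called higher.

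With TMM scaling the first enzyme of heme breakdown was lower in T403A. The biliverdin reductase genes Blvrb and Blvra were within 1.5-fold, in opposite directions. Hmox1 (ENSMUSG00000005413, chr8:75093621-75100589, plus strand), the inducible heme oxygenase that opens the heme ring and frees its iron, was at 1405 CPM in WT (21072 counts) and 696 CPM in T403A (13884 counts). It was 2.02-fold lower (1.97 to 2.06), and 6.14% of measured genes had a lower log2 ratio. At a 2-fold threshold, which 6.08% of measured genes passed downwards and 7.21% upwards, Hmox1 was the 1 lower member and Slc40a1 the 1 higher member. It stayed at least 1.5-fold lower under the other scalings, from 1.77-fold with library size to 2.03-fold with DESeq2 size factors.

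Blvrb (ENSMUSG00000040466, chr7:27447978-27466144, plus strand), a reductase of biliverdin and flavins, was at 352 CPM in WT (5286 counts) and 297 CPM in T403A (5914 counts), 1.19-fold below WT (1.14 to 1.23), short of 1.5-fold with an interval that excluded 1. Relative to Blvrb in the same library, Hmox1 was 1.70-fold lower in T403A (1.63 to 1.77). Of 5 other genes of this step 1 was lower and none higher. The lower gene was Hmox2, the constitutive oxygenase, at 117 and 76.5 CPM, 1.52-fold lower (1.42 to 1.63), with the limit that 892 bases of its exons overlap those of Cdip1 on the opposite strand. The call for Hmox2 was lost with library size scaling and with upper quartile scaling. Under each of these, none of these 5 genes was lower and 1 was higher, Blvra. With TMM, Blvra was at 67.3 CPM in WT (1009 counts) and 96.3 CPM in T403A (1920 counts). Its ratio was 1.43 (1.33 to 1.55), short of 1.5-fold with an interval that excluded 1. Relative to Hmox2, Hmox1 was 1.32-fold lower in T403A (1.23 to 1.42). The heme transporter gene Slc48a1, which passes heme from the phagolysosome to the cytosol, was nearly equal at 563 and 560 CPM, and the exporter gene Abcc1 was at 595 and 562 CPM.

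**Figure D2:**
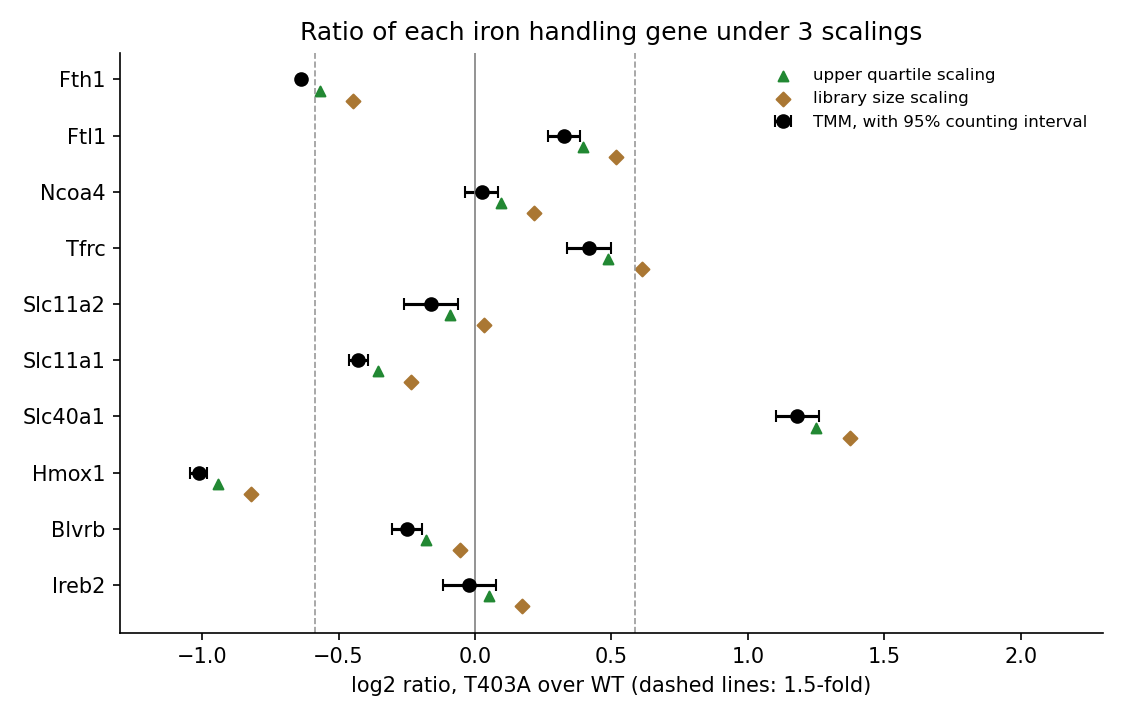
Log2 ratio of T403A over WT for each iron handling gene, as black circles with 95% counting intervals (TMM), green triangles (upper quartile scaling) and brown diamonds (library size scaling), with dashed lines at 1.5-fold. Slc40a1 and Hmox1 stay outside the dashed lines under these scalings, Fth1 crosses inside with both alternatives, and Tfrc crosses outside with library size.

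Neither iron regulatory protein gene was called. Ireb2 (ENSMUSG00000032293, chr9:54863789-54912530, plus strand), iron regulatory protein 2, which binds the hairpins printed above when iron is low, was at 105 CPM in WT (1568 counts) and 103 CPM in T403A (2055 counts). The ratio was 0.986 with an interval of 0.923 to 1.05, so counting error alone spans no difference. Ireb2 is controlled mainly by breakdown of its protein, which mRNA counts do not show. Aco1, the other iron regulatory protein, was at 74.7 and 90.7 CPM. Relative to Aco1, Ireb2 was 1.23-fold lower in T403A (1.11 to 1.36). Fbxl5, the ligase subunit that marks iron regulatory protein 2 for breakdown in iron-rich cells, was at 89.1 and 80.8 CPM.

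Of the 8 other regulators listed, all measured, 1 was higher, 2 were lower and 5 were not called. The higher gene was Epas1 (HIF-2 alpha, whose mRNA is also known to hold an iron-responsive element), at 5.73 CPM in WT (86 counts) and 13.3 CPM in T403A (265 counts), 2.32-fold higher (1.81 to 2.99). The lower genes were Spic, given above, and Zfp36 (tristetraprolin, which destabilises mRNA), at 260 and 117 CPM, 2.22-fold lower (2.11 to 2.34). Transcription of Hmox1, the ferritin genes and Slc40a1 is known to be repressed by Bach1 and driven by NRF2, the product of Nfe2l2. Bach1 was at 237 and 211 CPM and Nfe2l2 at 662 and 690 CPM, both within 1.5-fold. Of 10 NRF2 target genes outside iron handling 1 was higher (Nqo1, 2.05-fold, interval 1.77 to 2.38), 2 were lower (Slc7a11, 2.19-fold, and Gsr, 1.75-fold) and 7 were within 1.5-fold, among them the abundant Prdx1 at 2103 and 2093 CPM and Txnrd1 at 607 and 510 CPM. The median log2 ratio of this list was -0.15, and 0.04 with library size scaling.

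The genes listed as holding an iron-responsive element did not share a direction. Among those with one in the 5′ UTR, Slc40a1 and Epas1 were higher, Fth1 was lower and Ftl1 was within 1.5-fold. Of 4 genes listed with one in the 3′ UTR (Tfrc, Slc11a2, Cdc14a and Cdc42bpa) none was called, and their median log2 ratio was 0.22. With library size scaling 2 were higher and the median was 0.41. These lists rest on known iron biology, and the hairpin search did not match all of their genes. It matched Tfrc but not Slc11a2, Cdc14a or Cdc42bpa in the 3′ UTR, and it did not match Epas1.

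Promoter letters were searched because STAT2 acts at interferon-stimulated response elements and because NRF2 and Bach1 share the antioxidant response element. RefSeq windows on GRCm38.p6, from 250 bases before to 50 after a start site, were matched for 7 members (12 windows). Hmox1, Slc40a1 and Slc11a2 had no match and were not searched. On both strands, the core of the interferon-stimulated response element (GAAA, 2 bases, GAAA, in 3.44% of all 32851 windows) was found in 1 window, of Ncoa4, and the core of the antioxidant response element (TGACNNNGC, in 12.4%) in 1 window, also of Ncoa4. A hypoxia response core (ACGTGC, in 5.91%) lay in the stretch shared by both windows of Tfrc. The lysosomal CLEAR box (CACGTGAC, in 2.25%) and the STAT-type palindrome TTCNNNGAA (in 8.30%) were not found in these windows. The matches are shown with the motif in capitals, in the orientation of the gene.
Ncoa4, interferon-stimulated response element core on the reverse strand, chr14:32165336-32165356: tTTTCTGTTTCttccctccca
Ncoa4, antioxidant response element core, chr14:32165735-32165763: aggcggggcgTGACCTGGCcggtagggta
Tfrc, hypoxia response core, chr16:32608884-32608909: cggtaggtgtACGTGCggaaggaagt
Neither gene met the 1.5-fold condition.

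Pairs of genes within a library gave comparisons that scaling cannot move. The shifts of the 8 pairs computed ran from 1.95-fold down (Fth1 to Ftl1) to 2.08-fold up (Tfrc to Fth1). Together the ferritin chains took 2.37% of counts in WT (Wilson interval 2.36 to 2.37) and 1.75% in T403A (1.75 to 1.76).

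**Figure D3:**
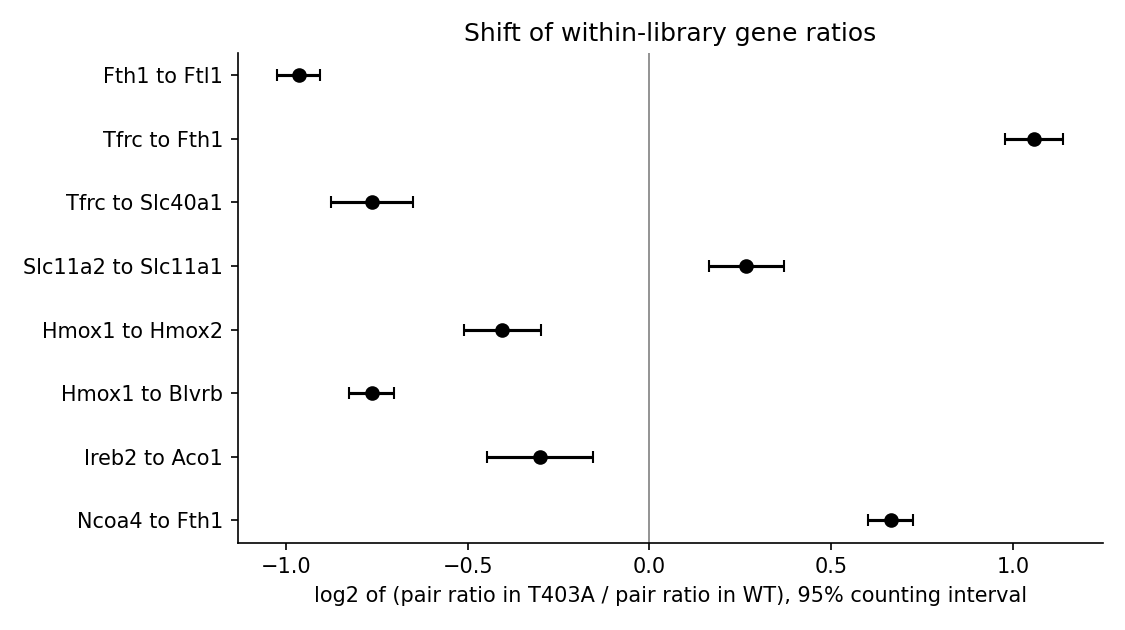
Shift of 8 within-library count ratios between the libraries, as the log2 of the ratio in T403A over the ratio in WT, with exact 95% counting intervals. The Tfrc to Fth1 ratio lies farthest to the right (2.08-fold higher in T403A) and the Fth1 to Ftl1 ratio farthest to the left (1.95-fold lower).

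The wider set of 61 iron genes beyond the members held 51 measured ones, of which 9 were lower, 4 higher and 38 not called, beside 10.8% lower and 13.5% higher among all measured genes. Their median log2 ratio was -0.09. With library size scaling, which shifts the median of all genes by 0.19, 5 were lower and 10 higher, so neither direction can be called the leading one. Of 10 genes of heme synthesis 9 were measured and 1 was lower, Alas1, the enzyme of the first step, at 183 CPM in WT against 120 CPM in T403A (1.53-fold lower, interval 1.45 to 1.61). A gene model on the opposite strand overlaps its exons, and with library size scaling no gene of this list was lower and 3 were higher. Upper quartile scaling also left no gene of the list lower, and 1 was higher. Fech, which inserts iron into heme, was nearly equal at 68.5 and 71.8 CPM.

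In the mitochondrial list of iron import and iron-sulfur cluster assembly, 17 of 17 were measured, 3 were lower, 1 was higher and 13 were not called. Slc25a37 (mitoferrin 1, which brings iron into mitochondria) was at 304 CPM in WT against 164 CPM in T403A, 1.85-fold lower (1.77 to 1.94). Iscu, the scaffold on which clusters are built, was 1.66-fold lower (1.54 to 1.79) and Bola3, a late-acting assembly factor, 1.67-fold lower on 146 and 116 counts. Hscb, the co-chaperone that hands clusters on, was at 6.73 CPM (101 counts) and 14.5 CPM (289 counts), 2.15-fold higher (1.71 to 2.73). Its partner chaperone Hspa9 was within 1.5-fold at 205 and 180 CPM. With library size scaling 1 gene of this list was lower and 3 were higher.

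**Figure D4:**
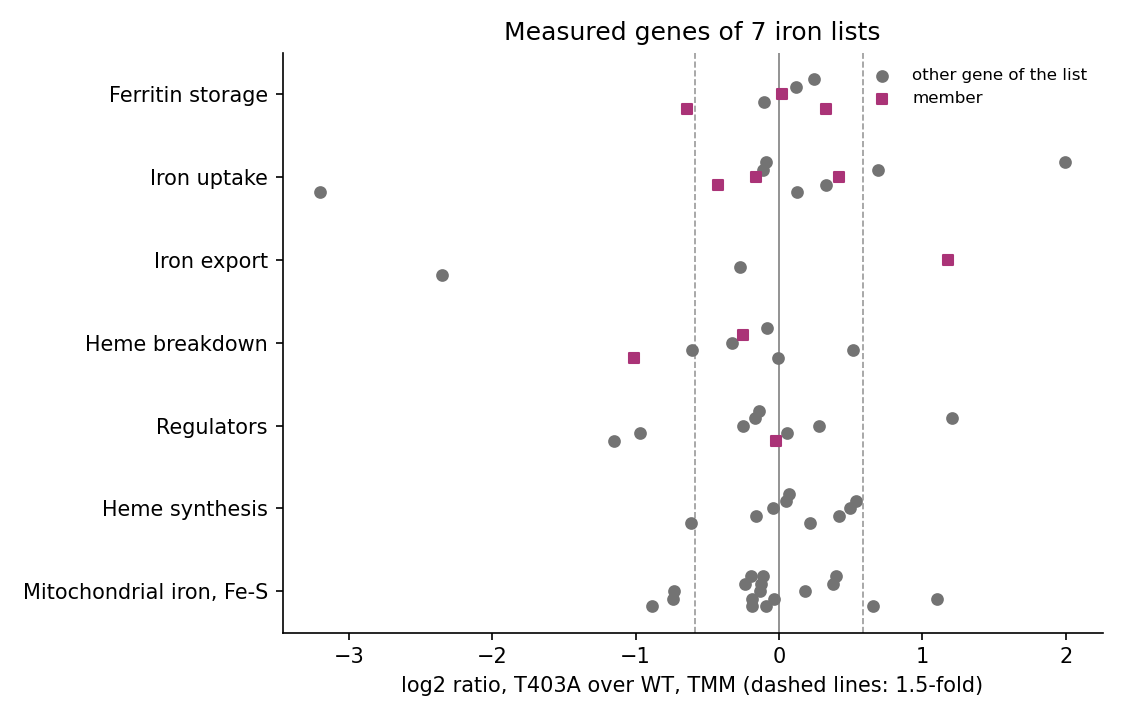
Log2 ratio of T403A over WT (TMM) for the measured genes of 7 iron lists, with squares for the 10 members, circles for the other genes and dashed lines at 1.5-fold. Most circles lie between the dashed lines, with Lcn2 (-3.20) and Cp (-2.35) at the far left and Slc39a8, Epas1 (1.21) and the member Slc40a1 (1.18) at the right.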

How the data were processed

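RNA of M-CSF macrophages was sequenced on an Illumina instrument, 1 library per genotype. The authors deposited whole-number read counts per Ensembl gene with a gene length, per the file headers. HTSeq 0.9.1, HISAT2, cutadapt 1.15, DESeq 1.30.0 and GRCm38 appear in the submitters' processing notes, with no role for any tool. Annotation release and strand setting: not given in the sources used here. Columns were matched to samples by title. Symbols were found for 21949 of 22060 identifiers, and where a symbol was shared, the identifier with the higher count was used. Positions are from GENCODE M21 on the same build.

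Counts were scaled with TMM (edgeR 4.0.16, R 4.3.3). Ratios carry exact 95% Clopper-Pearson intervals conditional on the summed count (scipy 1.17.1), and log2 ratios of lists use a prior count of 0.5. Ratios of gene pairs carry exact conditional intervals. No p-value can be computed with 1 library per group. Members and lists were chosen with earlier results of these data known. Named were all members, Stat2, from each list the 2 most abundant measured genes and the 2 with the largest called change, and the top gene of each marker list. Steap3, Spic, Gsr, Slc22a17, Cd163, Vcam1, Blvra, Bola3, Iscu, Aco1, Fbxl5, Hamp, Ftmt, Cd79a, the globin genes and the ferritin relatives were named after their values were seen. Some listed genes are not reported here. Alternatives were 4 other scalings, including size factors from DESeq2 1.42.0, and other thresholds, filters and prior counts. Exons of Slc11a2, Fbxl5, Slc48a1, Slc25a37, Pcbp1, Zfp36, Flvcr1, Cdc14a and Cdc42bpa overlap those of another gene on the opposite strand, so their counts may hold its reads.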

Additional observations from a re-analysis of the deposited data

How the results depend on the processing

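TMM without mitochondrial and the 20 most abundant genes, and DESeq2 size factors, moved no value beyond its counting interval and kept each count within 1.5 times. Library size scaling moved the median log2 ratio of all measured genes by 0.19 and gave log2 ratios of -0.45 for Fth1, 0.52 for Ftl1, 0.22 for Ncoa4, 0.61 for Tfrc, 0.031 for Slc11a2, -0.24 for Slc11a1, 1.37 for Slc40a1, -0.82 for Hmox1, -0.057 for Blvrb and 0.17 for Ireb2. Upper quartile scaling gave -0.57 for Fth1, 0.40 for Ftl1, 0.095 for Ncoa4, -0.36 for Slc11a1, -0.94 for Hmox1 and -0.18 for Blvrb. The count of lower members was 1 in place of 2 with library size scaling, upper quartile scaling or a 2-fold threshold, and the count of higher members was 2 with library size scaling. The median of the members became 0.10 with library size scaling. The wider iron genes then numbered 5 lower and 10 higher with a median of 0.10, and 7 were higher with upper quartile scaling. Among all measured genes, library size scaling called 20.4% higher and 7.95% lower, in place of 13.5% and 10.8%. With no count filter, the count of higher export genes rose from 0 to 1 (Slc22a17) and the median of the genes listed with a 5′ UTR element was 0.57 in place of 0.33. Outside mitochondrial genes the ferritin share was 2.41% in WT and 1.80% in T403A. No call of a member changed sign. Depth did not limit the members, each with at least 1565 counts per library. Leaving out a library was not possible with 1 per group. No paired analysis was possible because each genotype has a single library without a replicate number.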

Other observations

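The search for the iron-responsive hairpin also matched genes outside iron handling, given here as values chosen after they were seen. In the 5′ UTR it matched 11 genes, of which 8 were measured, 2 were higher in T403A, 2 lower and 4 neither. Among them were Nasp, a histone chaperone (log2 ratio 0.25), Ecd (0.02), the ferritin copy Ftl1-ps1 (0.76, on 42 and 95 counts) and the serpin gene Serpina3g (-1.65, on 36 and 15 counts). Both regions are read beside all measured genes, of which 13.5% were higher and 10.8% lower. In the 3′ UTR the search matched 38 genes, of which 23 were measured, 3 were higher, 6 lower and 14 neither. Among these the chemokine gene Cxcl16 was 2.38-fold lower on 5076 WT and 2831 T403A counts, the receptor chaperone gene Lrpap1 was 2.02-fold lower, and the spindle checkpoint gene Mad2l1 was 3.62-fold higher on 72 and 346 counts. Whether these letters bind an iron regulatory protein was not tested.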
